A study of Homo sapiens with 18 samples.

Results

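The genes described here are 39 genes of G2 and mitosis, taken as a fixed list of symbols from the authors' table of human pancreatic progenitors reseeded on a matrix protein. All 39 were found among the 21944 genes listed, each with a row at 3, 6 and 24 h, which gives 117 rows. The progenitors were made from human embryonic stem cells and were at day 19 of differentiation. The labels name the HUES4 line as the source, while their growth protocol names an SA121-derived line with an NGN3-GFP reporter, and both are established lines. The paper describes the sequenced cells as derived from NGN3-GFP. The cells were detached with accutase and reseeded on laminin-411 (LN411), a laminin isoform to which cells adhere weakly, or on fibronectin (FN), and poly(A) RNA was sequenced 3, 6 or 24 h later. There were 3 samples in each of the 6 groups of matrix and time, 18 in all, with no other agent or genotype between the groups. The value used for each gene is the mean normalized count, which is the number of reads on a gene divided by a size factor of the library and then averaged over samples by the authors. A gene's value was the same at the 3 times, with a largest relative gap of 4.89e-07, and is read here as the mean over all 18 samples, so that the levels below describe these progenitors as a whole. The level on 1 matrix or at 1 time, and the comparison of LN411 with FN, were not analysed here. A mean over all samples has no spread, so no error accompanies the levels and no difference between genes was tested.

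Mitosis is entered when CDK1 bound to A- and B-type cyclins becomes active, and it is left when the anaphase-promoting complex, with CDC20, marks cyclin B and securin for destruction. Between these events the chromosomes condense, the kinetochores attach to spindle microtubules, and the spindle checkpoint delays anaphase until all of them are attached. Most genes of this group are transcribed in G2 and mitosis and held low in G1, through promoter elements that include the cell cycle genes homology region (CHR), which the MuvB complexes bind, and the CCAAT box, which NF-Y binds. Their RNA in a bulk sample therefore reflects how many cells are cycling, and in bulk RNA fewer cycling cells and less RNA per cycling cell cannot be told apart.

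The mean normalized counts summed to 53217583 over all genes, of which the 39 genes held 0.129%. The counts of single libraries were not used, and their depth is unknown. Long transcripts collect more reads, so levels were compared between genes only after division by the length of the union of all annotated exons in kb. On this scale, the median level of the 39 genes was 301 normalized counts per kb, against 226 over the 14431 protein-coding genes listed at all 3 times. The median gene of the group stood at percentile 57.3 of these protein-coding genes, and 23 of the 39 lay above their median. Mitotic genes as a group thus lay close to the middle of the protein-coding genes. Dividing by the longest coding sequence in place of all exons put the median of the group below that of all protein-coding genes, at 0.713 times their median, so that the side of the middle on which the group falls depends on the length used.

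The cells' labelled type was checked on marker genes. Pancreatic progenitor markers were high, with levels per kb of 4969 for *PDX1*, 5259 for *SOX9*, 33603 for *GP2* and 773 for *NKX6-1*, all of them above the median protein-coding gene. *PTF1A*, a factor of early and acinar progenitors, was at 7.64 per kb. Of the 7 endocrine markers, 2 lay above the median protein-coding gene, *CHGA* at 1426 and *NEUROG3* at 289 per kb. The other 5 lay below it, with 199 for *INSM1*, 51.9 for *NKX2-2*, 12.7 and 6.87 for the hormone genes *INS* and *GCG*, and 8.67 for *NEUROD1*. Of the 4 pluripotency genes looked for, *ZFP42* and *DPPA4* were at 212 and 75.4, and the endothelial genes *PECAM1* and *CDH5* at 9.69 and 0.851. Among the mesenchymal genes, *COL1A1* was at 454, *PDGFRA* at 90.9, *COL3A1* at 47.4 and *THY1* at 1.67. Genes that are also known from liver and gut were high, with 26318 for *TTR*, 4232 for *APOA2*, 2929 for *VIL1* and 1011 for *CDX2*, whereas *ALB* was at 187 and *SI* at 3.92. *RBPJL*, *POU5F1*, *NANOG* and *DCN* were looked for and had no value among the genes analysed here. The part of any other cell type in the levels of the mitotic genes was not tested.

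**Figure D1:**
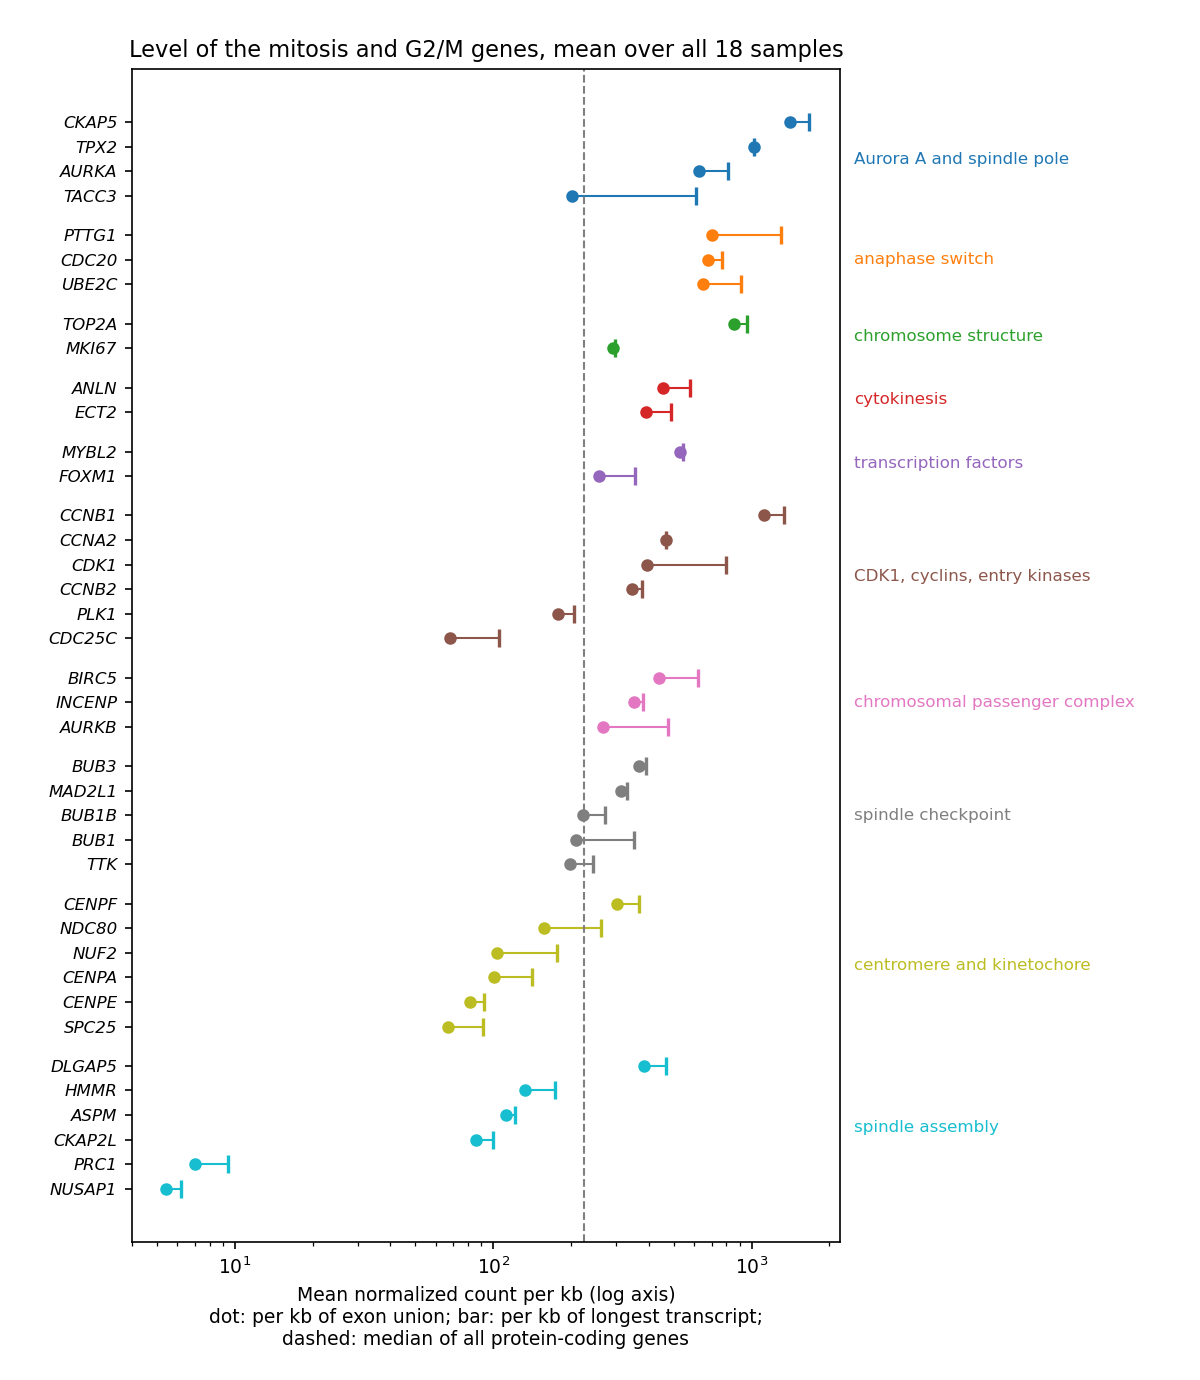
Mean normalized count per kb (log axis) of each of the 39 genes, grouped by role, with a dot per kb of all exons, a bar per kb of the longest transcript and a dashed line at the median of 226 for protein-coding genes. *CKAP5* is highest at 1406, the 37 highest genes lie within a factor of 21.0, and *PRC1* and *NUSAP1* lie apart at 6.99 and 5.43.

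CDK1 and its cyclins open mitosis. *CCNB1*, the cyclin B that is most tied to mitotic entry, is at 69167135 to 69178245 of chromosome 5 (GRCh38) and had a mean normalized count of 2715, or 1116 per kb, the second highest level of the group. *CCNB2*, the other mitotic cyclin B, was at 343 per kb, so that the level of *CCNB1* was 3.25 times that of *CCNB2*. With the length of the longest transcript or of the coding sequence this ratio was 3.54 or 2.64, so that *CCNB1* led under each length. *CCNA2*, the cyclin of S phase and G2, was at 465 per kb. *CDK1* itself (chromosome 10, 60778331 to 60794852) was at 395 per kb of all exons and 793 per kb of its longest transcript, and the ratio of *CCNB1* to *CDK1* ran from 2.82 to 1.21 over the 3 lengths. *PLK1*, the kinase that drives centrosome maturation and mitotic entry, was at 178 per kb, and *CDC25C*, a phosphatase that removes the inhibiting phosphates of CDK1, at 67.9. Per kb of all exons, *PLK1* and *CDC25C* were thus below the median protein-coding gene and the 3 cyclins were above it. Per kb of coding sequence, *CCNB2* at 791 was just below that median, which is then 797.

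The transcription factors of the program were at moderate levels. *MYBL2*, which encodes B-MYB, had 529 normalized counts per kb, and *FOXM1*, which takes over from B-MYB in G2, had 257. The ratio of *MYBL2* to *FOXM1* was 2.06 per kb of all exons, 1.53 with the longest transcript and 1.33 with the coding sequence. Exons of *ITFG2* on the opposite strand cover 15.9% of the exon bases of *FOXM1*, and reads there would be ambiguous in a count made without strand.

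The spindle-pole genes around Aurora A included the highest and the lower middle of the group. *CKAP5* (chromosome 11, 46743048 to 46846308), which encodes the microtubule polymerase chTOG, had a mean normalized count of 12002 and a level of 1406 per kb, at percentile 90.0 of the protein-coding genes and rank 1 of the 39. Per kb of coding sequence it was at rank 6. *TPX2*, the activator of Aurora A on spindle microtubules, was at 1023 per kb, and *AURKA* at 624. *TACC3*, the partner that Aurora A phosphorylates to recruit chTOG, was at 203 per kb. chTOG also acts on microtubules outside mitosis, unlike most proteins of the group. Between all exons and the longest transcript, *TACC3* had the largest ratio of levels of the 39 genes, 3.00: its annotated exons sum to 8825 bases and its longest transcript has 2943, and per kb of that transcript it was at 608, at rank 11 of the 39 in place of rank 26.

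The chromosomal passenger complex corrects faulty attachments and guides cytokinesis. *BIRC5*, which encodes survivin, was at 439 per kb, the scaffold *INCENP* at 352 and the kinase *AURKB* at 267. These 3 subunits lay within a ratio of 1.65 of each other per kb of all exons, and the ratio of *BIRC5* to *AURKB* was 1.30 with the longest transcript. With the coding sequence that ratio was 5.86, since the coding sequence of *BIRC5* has 495 bases in a longest transcript of 2711. *AURKA* was 2.34 times as high as *AURKB* per kb, and between 1.71 and 2.62 times as high with the other lengths.

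Per kb of all exons, the spindle checkpoint genes lay close to the median protein-coding gene. Their levels per kb were 367 for *BUB3*, 312 for *MAD2L1*, 223 for *BUB1B*, which encodes BUBR1, 209 for *BUB1* and 198 for the kinase *TTK*. *BUB1* and *BUB1B*, which encode related checkpoint proteins, had a ratio of 0.937 per kb of all exons and 1.29 per kb of the longest transcript, so that their order turned with the length. Per kb of coding sequence the 5 genes were far apart, with 3045 for *BUB3* and 2795 for *MAD2L1* against 405 for *BUB1*, 352 for *TTK* and 312 for *BUB1B*. *BUB1B* shares 10.2% of its exon bases with *PAK6* and the read-through gene *BUB1B-PAK6* on the same strand. Of the genes of the switch to anaphase, *PTTG1*, which encodes securin, was at 706 per kb of all exons and *CDC20* at 680. *UBE2C*, the ubiquitin-conjugating enzyme of the anaphase-promoting complex, was at 646. Per kb of all exons, the lowest of these 3 genes lay above the highest of the 5 checkpoint genes. This order did not hold with the coding sequence, where *CDC20* was at 0.327 times the level of *MAD2L1*. *UBE2C* has 5 annotated processed pseudogenes, of which *UBE2CP5* had a mean normalized count of 92.4, equal to 11.1% of that of *UBE2C*. The authors used the gene-count mode of STAR, which leaves out reads that fit several places equally well. The effect of this on the count of *UBE2C* was not tested.

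The centromere and kinetochore genes were low, with 5 of the 6 below the median protein-coding gene and a median of 102 per kb. *CENPF*, a large protein of the outer kinetochore, was at 301 per kb of all exons and was the exception on this scale. Per kb of coding sequence *CENPF* was at 402, below the median protein-coding gene at 797 and below *CENPA* at 466. Within the NDC80 complex, which binds microtubule ends, *NDC80* was at 157 per kb, *NUF2* at 104 and *SPC25* at 67.0. *NDC80* was 1.52 times as high as *NUF2* and 2.34 times as high as *SPC25*, and the order of the 3 subunits was the same with each of the 3 lengths. *CENPE*, the kinesin of the outer kinetochore, was at 81.1 per kb, and *CENPA*, the histone H3 variant that marks the centromere, at 101. *CENPA* shares 7.08% of its exon bases with *SLC35F6* on the same strand.

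*TOP2A* and *MKI67* are the genes most used to mark cycling cells. *TOP2A* (chromosome 17, 40388525 to 40417896), the topoisomerase that untangles sister chromatids, had a mean normalized count of 5457 and 856 per kb. *MKI67* (chromosome 10, 128096659 to 128126423), which encodes the Ki-67 protein of the chromosome surface, had a mean normalized count of 3752 but only 292 per kb, since its exons sum to 12845 bases. The level of *TOP2A* was 2.93 times that of *MKI67*, or 3.25 and 3.09 times with the other lengths. Among the cytokinesis genes, *ANLN*, which encodes the ring protein anillin, was at 456 per kb and *ECT2*, the activator of RhoA at the cell equator, at 392.

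The spindle assembly genes ran from near the middle of the protein-coding genes to the lowest levels of the group. *DLGAP5*, which encodes the microtubule-binding protein HURP, was at 382 per kb, *HMMR* at 133, *ASPM*, a protein of spindle poles, at 112 and *CKAP2L* at 85.9. *PRC1*, which crosslinks the antiparallel microtubules of the central spindle, had a mean normalized count of 38.6 and a level of 6.99 per kb. *NUSAP1*, which binds spindle microtubules near chromosomes, had 19.6 and 5.43. These 2 genes lay at percentiles 6.58 and 4.93 of the protein-coding genes, while the next lowest gene of the group, *SPC25*, lay at 28.2.

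*PRC1* and *NUSAP1* were also the 2 genes of the group that share most of their exons with another annotated gene. *PRC1* (chromosome 15, 90966040 to 90995629) shares 57.6% of its exon bases with the protein-coding gene ENSG00000284946 on the same strand, and *PRC1-AS1* covers 34.3% on the other strand. ENSG00000284946 had a mean normalized count of 52.9, above that of *PRC1*. For *NUSAP1* (chromosome 15, 41320794 to 41381050), ENSG00000285920 covers 81.4% of the exon bases on the same strand, and 86.8% are shared once *OIP5-AS1* is included. Unlike ENSG00000284946, ENSG00000285920 had no value among the genes listed. Of the 39 genes, 35 share no exon base with another gene on their own strand, and the other 2 that do, *BUB1B* and *CENPA*, share at most 10.2%. On the opposite strand 11 of the 39 share exon bases, and 26 share none on either strand. The opposite-strand shares included 15.9% in *FOXM1*, 12.8% in *PLK1*, 9.24% in *CCNA2*, 8.80% in *CDC25C* and 8.69% in *CKAP2L*. Over all 14431 protein-coding genes, the 196 that share over 50% of their exon bases on the same strand had a median of 17.1 per kb, against 238 for the 11998 that share none. The gene-count mode of STAR leaves out reads that overlap more than 1 gene, and the annotation the authors counted on was an older release than the one used here for the overlaps. The part of shared exons in the levels of *PRC1* and *NUSAP1* was not tested. Without these 2 genes, the median of the group was 312 per kb.

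**Figure D2:**
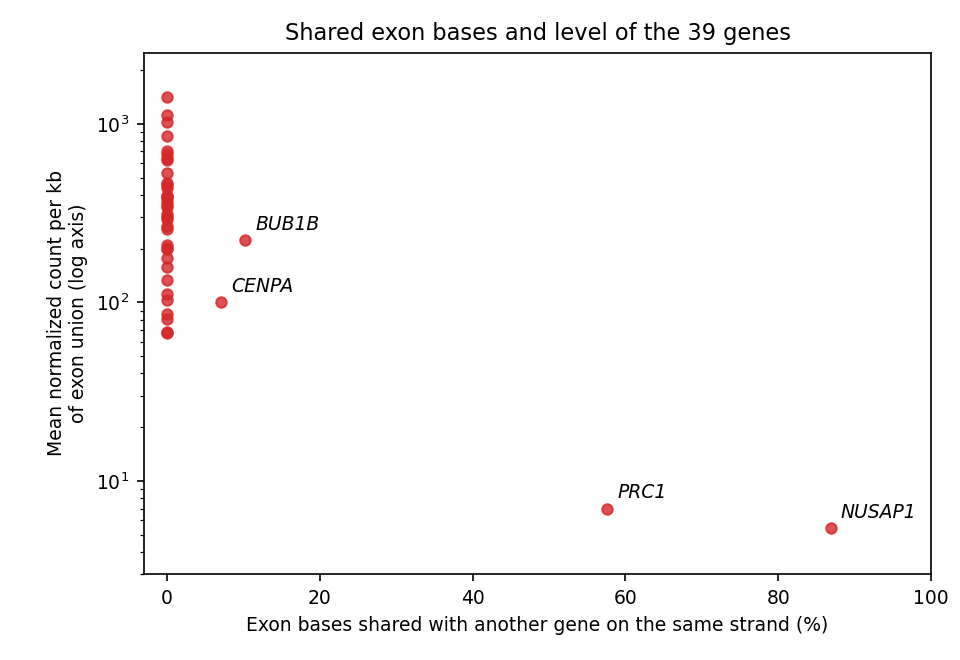
Share of each gene's exon bases that another gene on the same strand also covers (percent) against its mean normalized count per kb (log axis), 1 point for each of the 39 genes. *PRC1* at 57.6% and *NUSAP1* at 86.8% are the lowest points, and the 35 genes at 0 lie at 67.0 per kb or above. Overlap on the opposite strand is not drawn.

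The levels were set beside other gene lists. A list of 40 other mitosis genes had a median of 157 per kb, from 25.96 for *SKA1* to 810 for *NCAPD2*, with 15 of 40 above the median protein-coding gene. The 31 DNA replication genes had a median of 349 per kb, with 21 of 31 above that median and a range from 49.1 for *CCNE2* to 4501 for *PCNA*. The 15 subunits and partners of the anaphase-promoting complex, most of which are not restricted to one phase of the cycle, had a median of 471 per kb, from 60.9 for *ANAPC10* to 1953 for *ANAPC13*. Per kb of all exons, the 39 genes thus had a median between those of the other mitosis genes and the replication genes. Without division by length, the medians were 1343 for the 39 genes, 712 for the other mitosis genes and 1238 for the replication genes. The order therefore depended on the scale, and the other lengths were not used for these lists. The lists were chosen by hand, and these medians describe them without a test.

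**Figure D3:**
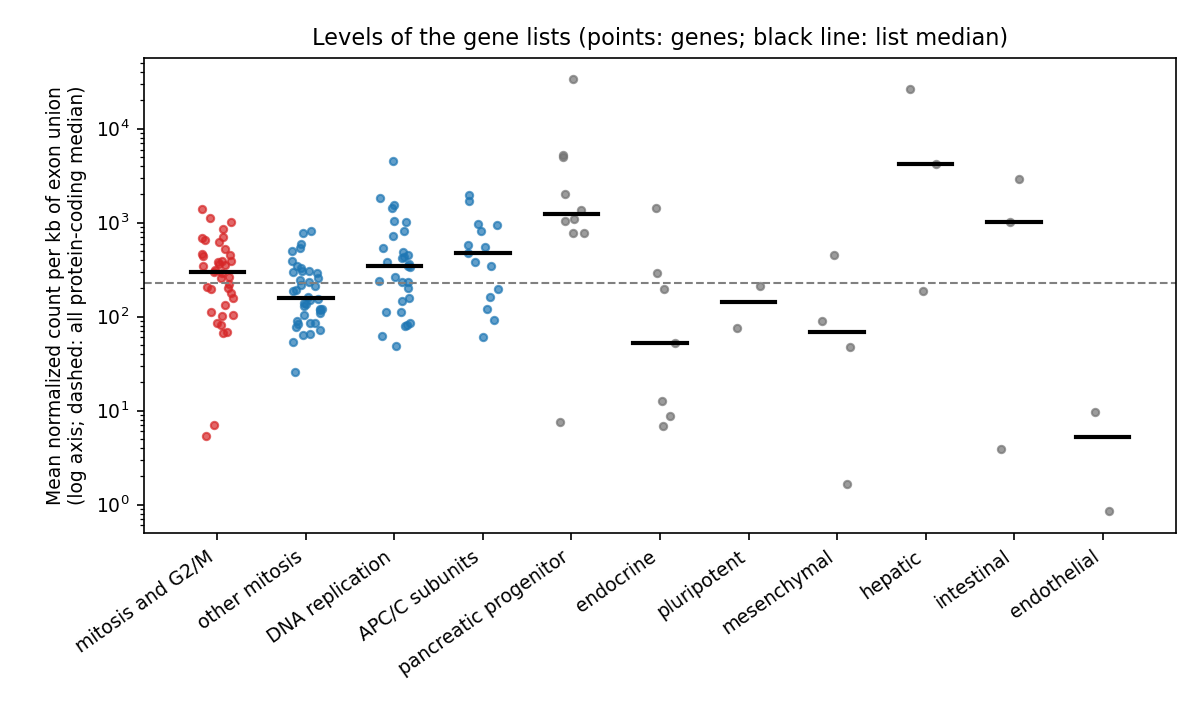
Mean normalized count per kb of all exons (log axis) for the genes of each list, 1 point per gene, with a black line at the list's median and a dashed line at the median of 226 for all protein-coding genes. The 39 mitosis and G2/M genes have a median of 301, the 40 other mitosis genes of 157 and the 10 pancreatic progenitor markers of 1229.98.

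What the genes share in sequence was read from RefSeq promoters of GRCh38.p14, which hold 250 bases before and 50 bases after a transcription start. They matched 32 of the 39 genes by symbol, with 39 promoters, since some genes have several starts. The others were *AURKA*, *TTK*, *BUB3*, *BIRC5*, *TPX2*, *UBE2C* and *FOXM1*. CHR was searched as TTTGAA or TTCGAA and the CCAAT box as CCAAT, both on either strand, and the letters of the 2 motifs cannot overlap by more than an end base. Shown are the 110 bases before the start, 5′ to 3′ on the gene's own strand, for the 6 genes with the highest levels per kb among those with a CHR match in this stretch, and for *CCNB1*, added after its values were seen as the highest of the cyclins. These RefSeq starts can differ from the ends of the gene positions given here, which come from GENCODE. The stretch of *CDK1* lies within its GENCODE position, and all others but that of *CDC20* reach into theirs. *CDK1* has 2 starts, and the first along the chromosome with a CHR match in this stretch is shown. Matches to CHR or the CCAAT box are in capitals.
CKAP5, chr11:46846281-46846390, minus strand: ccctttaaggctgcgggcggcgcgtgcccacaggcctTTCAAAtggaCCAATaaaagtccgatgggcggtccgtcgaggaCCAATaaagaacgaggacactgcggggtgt
CDC20, chr1:43358871-43358980, plus strand: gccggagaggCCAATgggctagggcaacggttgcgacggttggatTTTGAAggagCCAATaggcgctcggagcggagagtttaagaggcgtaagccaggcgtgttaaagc
ANLN, chr7:36389752-36389861, plus strand: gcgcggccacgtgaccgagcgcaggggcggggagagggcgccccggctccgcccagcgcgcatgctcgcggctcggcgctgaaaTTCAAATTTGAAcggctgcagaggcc
CDK1, chr10:60778368-60778477, plus strand: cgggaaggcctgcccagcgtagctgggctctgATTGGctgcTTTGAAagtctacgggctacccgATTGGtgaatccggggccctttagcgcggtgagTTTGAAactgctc
DLGAP5, chr14:55191586-55191695, minus strand: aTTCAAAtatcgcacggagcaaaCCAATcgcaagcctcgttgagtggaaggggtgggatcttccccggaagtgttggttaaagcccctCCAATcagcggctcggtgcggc
INCENP, chr11:62123901-62124010, plus strand: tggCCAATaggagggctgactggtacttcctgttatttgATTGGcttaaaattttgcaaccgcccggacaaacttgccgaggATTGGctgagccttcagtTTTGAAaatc
CCNB1, chr5:69167040-69167149, plus strand: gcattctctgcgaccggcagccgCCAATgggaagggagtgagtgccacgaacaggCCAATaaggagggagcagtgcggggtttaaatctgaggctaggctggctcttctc

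A CHR match stood in a promoter of 25 of the 32 genes, or 78.1% (95% Wilson interval 61.2 to 89.0, for counting error only), against 19.5% of all 27305 genes with a promoter and 15.8% of the 11578 that are among the protein-coding genes described above. The CCAAT box stood in 25 of the 32 genes as well, against 39.7% of all genes. Both motifs were present in 21 genes, or 65.6%, against 7.85% of all genes. The 7 genes without a CHR match were *AURKB*, *CCNA2*, *CCNB1*, *CENPE*, *MYBL2*, *PTTG1* and *TACC3*. Of these, *CENPE*, *MYBL2* and *TACC3* also had no CCAAT box. No other spelling of CHR was searched, so these genes lack a match to TTTGAA or TTCGAA, not necessarily the element. Of 33 other mitosis genes with a promoter, 75.8% held CHR and 72.7% the CCAAT box, while of 28 replication genes 10.7% held CHR and 64.3% the CCAAT box. A high share with CHR was thus common to both lists of mitosis genes and lower in the replication genes, and the CCAAT box was frequent in all 3 lists. No test was made of these shares, and a match to so few letters says nothing about binding.

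Position within the promoter was followed in the 27 genes with 1 start. Of their CHR matches, 15 began in the last 50 bases before the start. This is 55.6 matches per 100 promoters, against 1.42 in 8160 other protein-coding promoters. *ANLN*, *HMMR* and *MKI67* each held more than 1 of these matches. Another 8 CHR matches began in the 50 bases from the start onward, or 29.6 per 100 promoters, against 1.56 in the other promoters. CCAAT boxes lay further upstream, with 28 matches, or 104 per 100 promoters, beginning 51 to 100 bases before the start, against 19.9 in the other promoters. In *CCNB2*, CCAAT boxes began 54, 87, 120 and 244 bases before the start and CHR 29 bases before it. In *PLK1*, CHR also began 29 bases before the start and the CCAAT box 73. Several of the printed promoters depart from this order, as *CKAP5* and *CDC20* have a CCAAT box downstream of CHR.

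**Figure D4:**
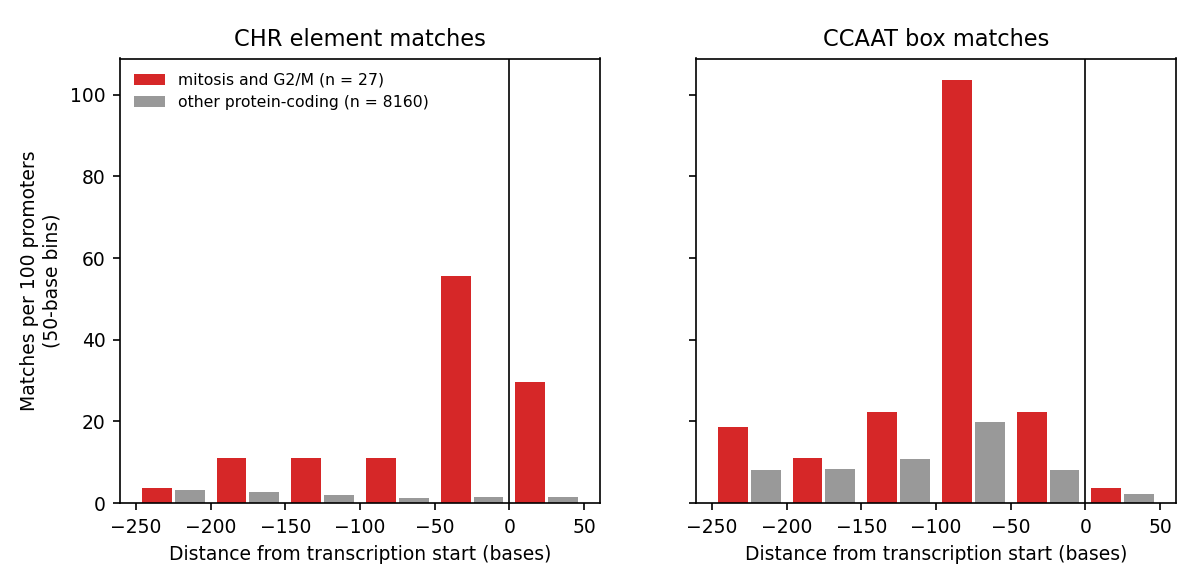
Matches per 100 promoters in bins of 50 bases, by distance from the transcription start, for CHR on the left and the CCAAT box on the right, with 27 mitosis and G2/M promoters in red and 8160 other protein-coding promoters in grey. Red bars peak at 55.6 in the last 50 bases before the start for CHR and at 104 in the bin before it for the CCAAT box.

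The levels of genes with and without a motif overlapped. The 25 genes with a match to TTTGAA or TTCGAA had a median of 223 per kb, from 5.43 to 1406. The 7 without such a match had a median of 465, from 81.1 to 1116. For the CCAAT box, the medians were 301 with it and 203 without it, with ranges of 5.43 to 1406 and 81.1 to 529. A match to the searched letters of either motif thus did not divide the group into genes of high and low level.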

How the data were processed

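The data were bulk RNA sequencing of pancreatic progenitors on LN411 or FN, 3 samples per group and 6 groups. Per the paper's methods and the submitters' processing notes, the authors aligned reads with STAR 2.7.2d to GRCh38.p13, counted them per gene on GENCODE v32 and normalized them with DESeq2 1.34.0. The paper names the NEBNext Ultra II RNA kit for the libraries and names no strand-specific version of it. Whether counting used the strand is not stated in the sources used here, so overlap on either strand may matter. The deposited table has a mean normalized count, a signal made by the authors as the average of counts over size factors. Its other columns, the authors' log2 fold change of LN411 over FN, standard error, Wald statistic, p-value and adjusted p-value, are the study's own comparison and were not used. A count model was planned for values per sample, which were not used here.

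Each mean normalized count was divided by the union of exons in kb from GENCODE v44, matched by Ensembl identifier for 99.6% of genes. Percentiles were taken among the protein-coding genes listed at all 3 times. Gene positions also come from GENCODE v44, which uses the same assembly. Functions were tested on simulated data. The 7 printed promoter stretches were checked against the hg38 sequence, and 0 differed. The text names every gene of the list, the highest and lowest gene of each other cell cycle list and cell type markers, of which 1 is not reported here; the genes and lists were chosen with earlier results of these data known. Software was Python 3.11.15, numpy 2.4.6, pandas 2.3.3, scipy 1.17.1 and matplotlib 3.10.9.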

Additional observations from a re-analysis of the deposited data

How the results depend on the processing

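The levels are means over 18 samples and carry no replicate spread, so changes are given as ratios and a change by over 1.5 times is named. With the longest annotated transcript as the length, 31 of the 39 genes changed by less than 1.5 times and 8 rose by more. With the longest coding sequence, 29 rose by more than 1.5 times, the median of the group was 569 per kb and its ratio to that of all protein-coding genes was 0.713, against 1.336 with all exons. The median percentile was 57.2 among genes whose normalized count averaged 10 or more, 59.9 among genes listed at any time, 51.9 without division by length, 54.4 with the longest transcript, 42.3 with the coding sequence and 58.3 without *PRC1* and *NUSAP1*. Of the genes, 53.1% held CHR and 75% the CCAAT box when only the 150 bases before the start were searched. Per promoter in place of per gene, the shares were 71.8% and 74.4%. The last 2 length settings of the percentile, the setting without 2 genes, the ratio of medians and the shares per promoter were chosen after seeing the data. No paired analysis was possible because the values are means over all samples. For the same reason the count model of LN411 against FN, planned without covariates, was not run. None of its alternative settings was run either, such as DESeq2 size factors, unfiltered genes or omission of single samples.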
